A study of Homo sapiens with 4 samples.

Results

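The MLL gene family encodes histone methyltransferases, and transcripts of the family members other than MLL itself, together with those of the core subunits that these enzymes share, were examined in THP1 cells after knockdown of the fusion MLL-AF9. Members were all probes whose gene name in the deposited intensity table was MLL2, MLL3, MLL4, MLL5, SETD1A, SETD1B, WDR5, ASH2L, RBBP5 or DPY30, excluding control spots and spots with a quality weight of 0 on an array. This gave 16 probes for 10 genes, of 26219 probes and 20654 gene names analysed. All 16 probes that the array holds for these genes passed. Of the 10 genes, 6 belong to the MLL and SETD1 families and are grouped here as methyltransferases, MLL5 included (11 probes), and 4 encode core subunits (5 probes).

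THP1 is a line of acute monocytic leukemia (AML M5) with the MLL-AF9 fusion, and all 4 samples came from this single line. Knockdown was performed with siRNA-A or siRNA-B, each directed against the breakpoint of the fusion transcript, and control treatments used either control siRNA-1 or control siRNA-2, which have no target. In every group the cells were transfected on days 0, 3 and 6, were moved to low-serum medium on day 6 and were harvested on day 8. Each single-colour Agilent array held RNA pooled from 5 experiments, so that the spread between experiments was not visible, and 2 knockdown arrays were compared with 2 control arrays. The 2 arrays of a group carried different siRNAs, and the p-values below rest on the spread between arrays, which limma moderates toward that of all probes, and not on separate experiments. All arrays lay on the same slide with the knockdown arrays at its first positions, so that treatment and position cannot be told apart. Fewer cells of a type and less RNA per cell cannot be told apart in such bulk RNA.

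The array's gene names are old, and MLL2 and MLL4 have each been used for both KMT2B and KMT2D. By the RefSeq accession of its probe, MLL2 was KMT2D and MLL4 was KMT2B. MLL3 was KMT2C and MLL5 was KMT2E. Accessions of 9 of the 10 genes matched a current symbol, and SETD1B was named by the array's symbol only.

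Enzymes of the MLL and SETD1 type methylate lysine 4 of histone H3, a mark of active promoters and enhancers. Each works in a complex around the same core of WDR5, RBBP5, ASH2L and DPY30, and is joined by partners particular to its complex. SETD1A and SETD1B are the human counterparts of the yeast Set1 enzyme, MLL and MLL4 (KMT2B) bind menin, and MLL3 and MLL2 (KMT2D) are known for methylation at enhancers. MLL5 is a more distant relative that is not known to work with this core. The fusion MLL-AF9 keeps the amino-terminal part of MLL and lacks its catalytic SET domain.

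Probes on this array are 60-base oligonucleotides. The sequences of 6 of them are given 5′ to 3′ as in the scanner tables, in lower case with no part marked. The MLL3, MLL4 and MLL5 probes listed first for each gene are among the 4 without overlap between the groups. On these, both knockdown arrays lay on the same side of both control arrays. Of all probes, 21.4% lay wholly lower on the knockdown arrays and 15.2% wholly higher. The other MLL4 and MLL5 probes are further probes of the same genes. The RBBP5 probe is the brighter of the pair for this dim core subunit.
MLL3 A_33_P3321275: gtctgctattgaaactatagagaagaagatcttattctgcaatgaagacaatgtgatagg
MLL4 A_33_P3221761: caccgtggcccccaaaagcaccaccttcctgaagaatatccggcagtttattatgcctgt
MLL4 A_23_P142421: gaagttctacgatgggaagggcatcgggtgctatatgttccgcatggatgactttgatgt
MLL5 A_33_P3277407: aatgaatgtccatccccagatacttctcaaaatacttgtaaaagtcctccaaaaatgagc
MLL5 A_24_P196704: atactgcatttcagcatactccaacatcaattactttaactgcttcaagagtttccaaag
RBBP5 A_33_P3235642: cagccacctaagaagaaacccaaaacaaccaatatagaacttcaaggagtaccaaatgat
In the hg19 coordinates of the scanner tables, the MLL3 probe lies at chr7:151921100-151921158 on the minus strand, the MLL4 probes at chr19:36211782-36211841 and chr19:36229074-36229223 on the plus strand, the MLL5 probes at chr7:104751253-104751312 and chr7:104715141-104715200 on the plus strand, and the RBBP5 probe at chr1:205065811-205065870 on the minus strand. The 60 bases of MLL4 probe A_23_P142421 are spread over 150 genomic bases, and the MLL3 probe covers 59. The probes start at transcript positions 3483 (MLL3), 1532 and 7853 (MLL4), 4539 and 1141 (MLL5) and 1465 (RBBP5), counted from 1 at the transcript's start. Over all 16 member probes GC content ran from 35.0% to 51.7% with a median of 37.5%, against a median of 45% over all probes. The longest run of bases that a member probe shared with a probe of another gene was 16. Part of the MLL3 gene has near-identical copies elsewhere in the genome, and whether a probe also matches them was not tested.

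Values are log2 of the deposited intensity, which is the brightness of a spot without background correction or normalization between arrays. Median log2 intensity over all spots analysed was 8.558 to 8.655 on the 4 arrays, 70.01% to 74.32% of spots were well above background by the scanner software, and the share was lower on both knockdown arrays. All 16 member probes were well above background on all 4 arrays, and none was marked as an outlier spot. In 12 of them the local background was at most 6.87% of the intensity. It was over 10% in 4, namely both RBBP5 probes, MLL4 A_33_P3221761 and MLL5 A_33_P3277407. Of the markers examined, 9 of 9 myeloid genes were well above background on every array, as were 3 of 3 T cell, 2 of 3 B cell, 2 of 3 erythroid and 0 of 2 epithelial genes (EPCAM on no array), and their part in the results was not tested.

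No methyltransferase or core subunit of this family passed the threshold for a change after MLL-AF9 knockdown. A probe was called at an unadjusted two-sided p under 0.005 in a linear model (limma) fitted to all probes, and 0 of 16 member probes were called, against 1.32% of all probes. At an unadjusted p under 0.05, 1 member probe (MLL3) passed, against 8.06% of all probes. None passed at a Benjamini-Hochberg adjusted p under 0.05 in limma, against 0.118% of all probes, and the lowest adjusted p was 0.535. For 2 member probes the siRNA-A and siRNA-B values were each lower than either control value, against 21.4% of all probes, and for 2 they were each higher, against 15.2% of all probes. Each of these shares over the members rests on 16 probes, of which several report the same transcript.

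The log2 fold changes, knockdown minus control, ran from -0.36 to 0.18 over the 16 probes, with 9 above 0 and 7 below. Their median size without sign was 0.0922, beside 0.0984 over all probes. The arrays of a group differed by a median of 0.0903 between the controls and 0.148 between siRNA-A and siRNA-B for the member probes, and by 0.106 and 0.139 over all probes. In 13 of the 16 the fold change was smaller in size than at least 1 of the differences between arrays of the same treatment, as it was in 75.6% of all probes. The median log2 fold change had no settled sign. It was 0.0206 over the 16 probes, beside -0.0181 over all probes, and -0.0356 over the 10 genes taken by their brightest probes, beside -0.0186 over all gene names. By the mean of a gene's probes it was -0.0111. By brightest probes without siRNA-A it was 0.0393, beside 0.00935 over all probes without that array.

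**Figure D1:**
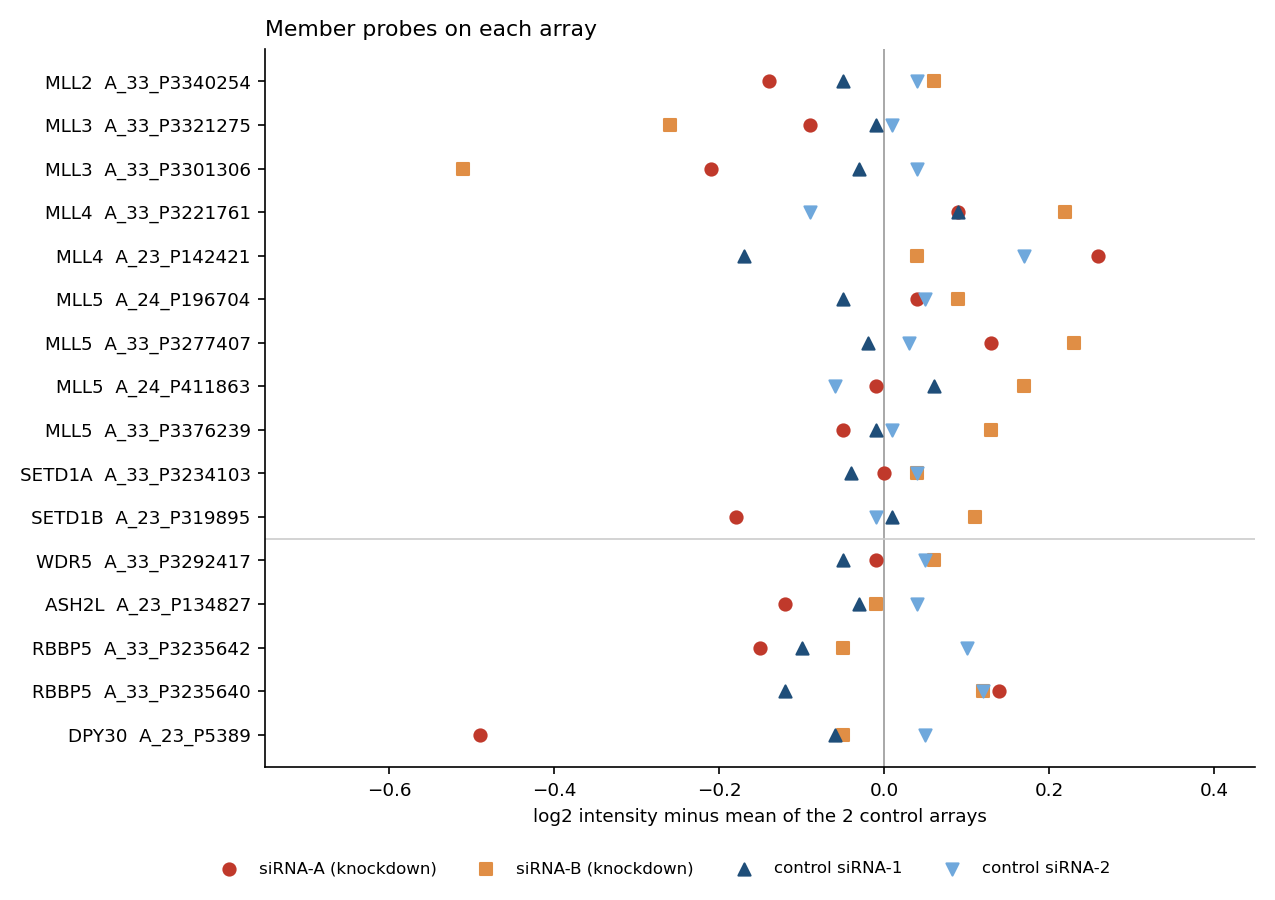
Log2 intensity of each member probe on each array, given as the difference from the mean of the 2 control arrays (x axis, log2 units), with methyltransferases above the grey line and core subunits below it. Circles are siRNA-A, squares siRNA-B, upward triangles control siRNA-1 and downward triangles control siRNA-2. Points farthest from the controls are siRNA-B on MLL3 A_33_P3301306 and siRNA-A on DPY30, and the circle and triangle of MLL4 A_33_P3221761 coincide at this precision.

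Among the methyltransferases, MLL3, the KMT2C enzyme known for monomethylation of lysine 4 at enhancers, was lower on both knockdown arrays with both of its probes. Probe A_33_P3301306, at chr7:151832030-151832089 on the minus strand and at position 16782 of the transcript, read 11.22 with siRNA-A and 10.92 with siRNA-B, and 11.40 and 11.47 with control siRNA-1 and siRNA-2. The log2 fold change was -0.36 (SE 0.13, 95% interval -0.66 to -0.07), that is 0.777-fold with an interval of 0.631 to 0.956. Its unadjusted p was 0.0224 and its adjusted p 0.535 in limma, so that it was not called. After quantile normalization the p was 0.0611, with the scaled background-subtracted signal 0.123 and without the siRNA-B array 0.105, where the log2 fold change was -0.21. The siRNA-A array lay at -0.21 and the siRNA-B array at -0.52 from the control mean, while control siRNA-1 minus control siRNA-2 was -0.08. Probe A_33_P3321275, toward the transcript's 5′ end, read 8.86 and 8.69 with siRNA-A and siRNA-B, and 8.94 and 8.96 with the controls. Its log2 fold change was -0.17 (SE 0.12) with a fold interval of 0.739 to 1.06 and an adjusted p of 0.771 in limma. Again siRNA-B was the lower array, at -0.26 from the control mean against -0.09 for siRNA-A. Probes at different places of 1 transcript share the RNA of each array and are not replicates of the treatment.

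MLL4, the KMT2B enzyme and nearest relative of MLL, had log2 fold changes above 0 with both probes as reported, neither past the threshold, and 1 of them turned without control siRNA-1. A_33_P3221761 read 6.79 and 6.92 with siRNA-A and siRNA-B, and 6.79 and 6.61 with control siRNA-1 and siRNA-2. The groups did not overlap on this probe, but siRNA-A and control siRNA-1 are equal at 2 decimals, and local background made up 16.5% to 20.3% of the intensity. The log2 fold change came to 0.16 (SE 0.12, adjusted p = 0.81 in limma). A_23_P142421 read 10.89 and 10.67 against 10.46 and 10.80, with a log2 fold change of 0.15 (SE 0.15, adjusted p = 0.854 in limma). Without control siRNA-1 this was -0.0182, and the background-subtracted signal gave 0.0593 when scaled and 0.0288 when not. On this probe the groups overlapped, and the controls were 0.34 apart, the widest gap between controls among the member probes.

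MLL5 (KMT2E), whose SET domain has no established methyltransferase activity, was covered by 4 probes with log2 fold changes of 0.04 to 0.18, and none passed the threshold. The groups did not overlap on A_33_P3277407 alone, which read 7.09 and 7.19 with siRNA-A and siRNA-B, and 6.94 and 6.99 with the controls. Its log2 fold change was 0.18 (SE 0.11), the interval -0.07 to 0.43 and the adjusted p 0.752 in limma, at a background share of 13.4% to 16.1%. With the scanner's background-subtracted signal, scaled to its 75th percentile, this value was 0.07. A_33_P3376239, the brightest of the gene (chr7:104754468-104754527, plus strand), read 12.01 and 12.19 against 12.05 and 12.07, so that the controls lay between the siRNAs. The probe gave a log2 fold change of 0.04 (SE 0.12) with a fold interval of 0.855 to 1.24. A_24_P196704 read 10.74 and 10.79 against 10.65 and 10.75, with a log2 fold change of 0.07 (SE 0.11). A_24_P411863 (chr7:104753597-104753656, plus strand) read 8.29 and 8.47 against 8.36 and 8.24, with a log2 fold change of 0.08 (SE 0.12), and both of these overlapped between the groups.

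MLL2 (KMT2D), the enhancer enzyme related to MLL3, had overlapping groups on its single probe A_33_P3340254 (chr12:49412780-49412839, minus strand). It read 11.89 with siRNA-A and 12.09 with siRNA-B, and 11.98 and 12.07 with the controls. The log2 fold change was -0.04 (SE 0.12) with a fold interval of 0.807 to 1.18. SETD1A, which carries much of the trimethylation of lysine 4, was the steadiest of the methyltransferases across arrays in the deposited intensity. Probe A_33_P3234103 (chr16:30995913-30995972, plus strand) read 13.04 and 13.08 with siRNA-A and siRNA-B, and 13.00 and 13.08 with the controls. Its log2 fold change was 0.02 (SE 0.11), with a fold interval of 0.855 to 1.21. With the scaled background-subtracted signal the log2 fold change was 0.115. SETD1B, its paralog, read 9.23 and 9.52 against 9.42 and 9.40 with probe A_23_P319895 (chr12:122269954-122270013, plus strand). Here the siRNAs lay on opposite sides of both controls, at -0.18 and 0.11 from the control mean, and the log2 fold change was -0.03 (SE 0.13) with a fold interval of 0.797 to 1.2.

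The core subunits, through which the enzyme complexes are assembled and stimulated, had no probe that was called, against 1.32% of all probes, and the groups overlapped on all 5 of their probes, too few to set against the 21.4% and 15.2% of all probes that lay wholly lower or higher. WDR5, the propeller protein that holds the enzyme through its WIN motif, read 13.72 and 13.79 with siRNA-A and siRNA-B, and 13.68 and 13.78 with control siRNA-1 and siRNA-2, with probe A_33_P3292417 (chr9:137024979-137025038, plus strand). Its log2 fold change was 0.02 (SE 0.11) and the fold interval 0.849 to 1.21. ASH2L, which pairs with RBBP5 to stimulate catalysis, read 11.62 and 11.73 against 11.71 and 11.78 with probe A_23_P134827 (plus strand of chromosome 8, 37996767 to 37996826). For this probe siRNA-B lay between the controls, and the log2 fold change was -0.07 (SE 0.11) with a fold interval of 0.799 to 1.14.

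RBBP5, the subunit that contacts both WDR5 and ASH2L, was dim on both of its probes, and the signs of their fold changes differed in the deposited intensity but not in the background-subtracted signal. A_33_P3235642 read 6.36 and 6.46 with siRNA-A and siRNA-B, and 6.41 and 6.61 with the controls, with a log2 fold change of -0.10 (SE 0.12, fold interval 0.769 to 1.13). A_33_P3235640, at chr1:205064039-205064098 on the minus strand, read 6.09 and 6.07 against 5.83 and 6.07, with a log2 fold change of 0.13 (SE 0.12, fold interval 0.902 to 1.32). Local background was 19.4% to 26.1% of the intensity of the former and 26.9% to 35.1% of the latter, and on both the controls differed by at least as much as the fold change. With the background-subtracted signal, scaled to its 75th percentile, the log2 fold changes were -0.25 (unadjusted p = 0.0784 in limma) and -0.0199. Without control siRNA-2 the value of A_33_P3235642 was -0.000899.

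DPY30, the small subunit that binds ASH2L, had the lowest log2 fold change of the core, and it came from a single array. Probe A_23_P5389 (chr2:32254665-32254724, minus strand) read 11.80 with siRNA-A, 12.24 with siRNA-B, and 12.23 and 12.34 with the controls. The siRNA-A array lay at -0.49 from the control mean, whereas siRNA-B lay at -0.05 and between the controls. The log2 fold change was -0.27 (SE 0.15), the fold interval 0.652 to 1.06 and the adjusted p 0.735 in limma. Without the siRNA-A array the log2 fold change was -0.05, and without the siRNA-B array it was -0.49 (unadjusted p = 0.0136), so that 1 library decides this value. The difference of 0.44 between the siRNAs was the widest of the member probes.

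**Figure D2:**
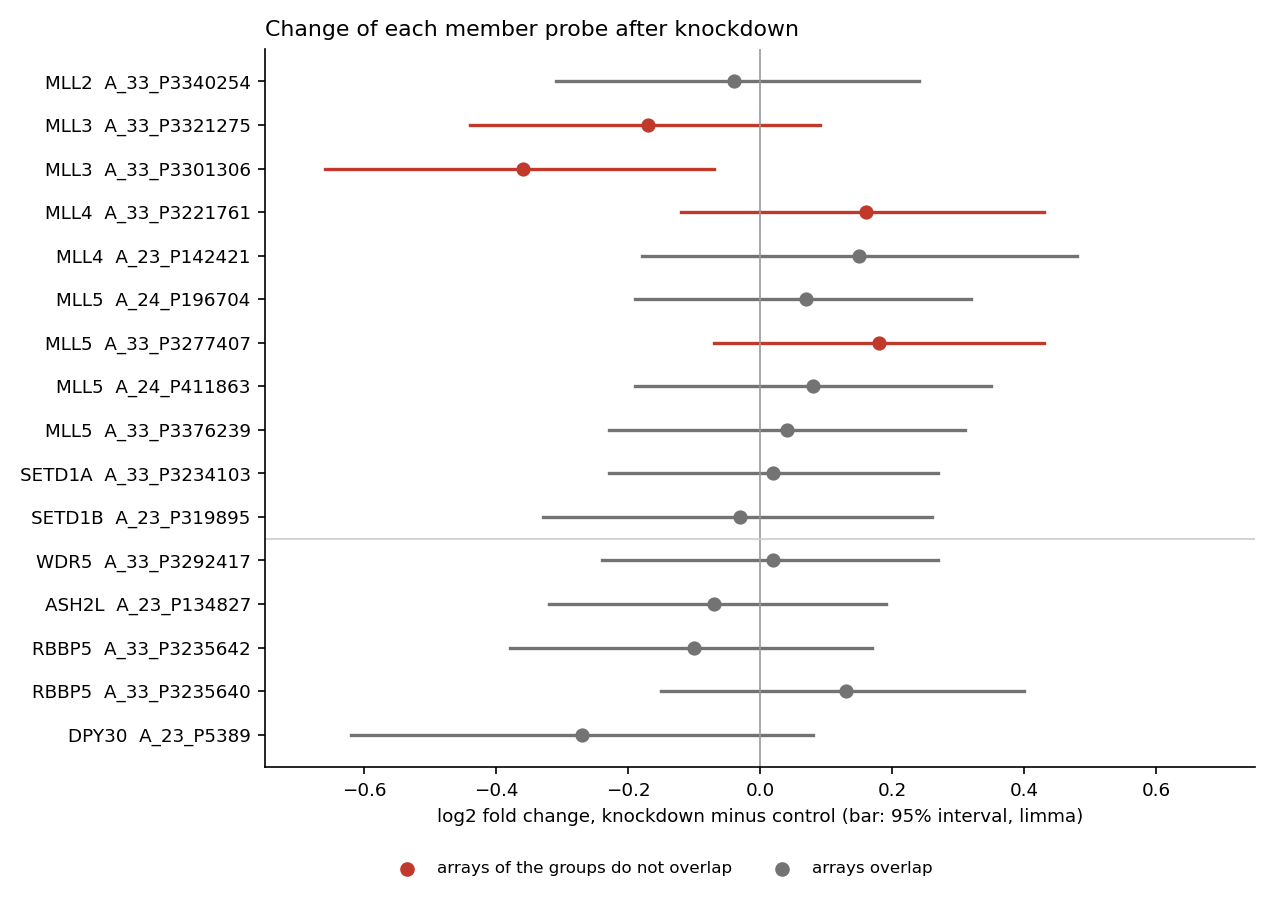
Log2 fold change of each member probe (x axis, knockdown minus control, log2 units), with bars for the 95% interval from limma, methyltransferases above the grey line and core subunits below it. Red marks the 4 probes on which the arrays of the groups did not overlap and grey the other 12. Of all probes, 21.4% lay wholly lower after knockdown and 15.2% wholly higher. Of the 16 intervals, 15 include 0, and that of MLL3 A_33_P3301306 does not.

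The intervals give the size of change that the deposited intensity leaves possible. In 14 of 16 probes the 95% interval lay within 0.5 of 0 on the log2 scale, a fold of 1.41 in either direction. The exceptions were MLL3 A_33_P3301306 and DPY30. Over all 16 the lowest bound was 0.631-fold and the highest 1.4-fold. With the scaled background-subtracted signal 9 of 16 intervals lay within 0.5 of 0. The bounds then ran from 0.643-fold (MLL3 A_33_P3301306) to 1.56-fold (MLL4 A_33_P3221761). With the unscaled signal 10 of 16 lay within 0.5 of 0, and the bounds ran from 0.616-fold (DPY30) to 1.5-fold (MLL4 A_33_P3221761). A permutation test of 2 against 2 arrays cannot give a two-sided exact p below 0.333, so that the values rest on limma's spread shared over all probes.

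The partners that distinguish the complexes were examined as well, by the brightest probe of each of 13 genes. None was called, against 1.35% of all gene names, and none had an unadjusted p under 0.05 in limma, against 8.20%, so that a count of 0 among 13 is near the background. Of the 12 that were well above background on all arrays, 9 had log2 fold changes above 0 and 3 below, with a median of 0.086, beside -0.0186 over all gene names. Without control siRNA-1 the median over the 13 was -0.0055, against 0.085 with all arrays. Over all probes it was -0.0505 without control siRNA-1, against -0.0181 with all arrays. For the partners of the MLL and MLL4 complexes, MEN1 (menin, which tethers them to chromatin through LEDGF) gave 0.12 (SE 0.12, and 0.0313 without siRNA-A), HCFC1 0.09 (SE 0.11) and its paralog HCFC2 0.14 (SE 0.15). The other HCFC2 probes gave 0.08 (SE 0.15) and -0.02 (SE 0.14). MYST1, the acetyltransferase KAT8, gave 0.09 (SE 0.11). HCFC1 read 7.88 and 7.89 with siRNA-A and siRNA-B, and 7.83 and 7.77 with the controls, without overlap.

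Among the partners of the SETD1 complexes was CXXC1, which binds unmethylated CpG. It read 11.53 and 11.31 with siRNA-A and siRNA-B, and 11.13 and 11.29 with the controls. Its log2 fold change of 0.21 (SE 0.13, adjusted p = 0.749 in limma) was the highest of the partners by their brightest probes. The groups did not overlap, but the siRNA-B array was closer to control siRNA-2 than to siRNA-A, and the log2 fold change was 0.0983 without siRNA-A and 0.322 without siRNA-B. WDR82, which links SETD1 to RNA polymerase II, gave 0.07 (SE 0.11), BOD1 0.09 (SE 0.19) and BOD1L 0.09 (SE 0.12). The other BOD1L probes gave 0.02 (SE 0.13) and -0.06 (SE 0.11). WDR82 is printed on 10 spots, and identical spots of an array varied with an SD of 0.107 to 0.207 in log2 units, beside a median of 0.176 over the 757 probes on 10 spots. Each member probe is printed on 1 spot only, so that this spread enters its values in full.

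In the MLL2 and MLL3 complexes, NCOA6 gave 0.03 (SE 0.12), PAXIP1 -0.01 (SE 0.12) and C16orf53 (PAGR1) -0.05 (SE 0.12). KDM6A, the lysine 27 demethylase of these complexes, was well above background on 1 of 4 arrays, and no fold is given. Beyond the brightest probes, PSIP1 (LEDGF) had probes of different accessions. Their 95% intervals overlapped (-0.28 to 0.28 for A_33_P3226605, -0.63 to -0.01 for A_33_P3226610), and the difference between them was not tested. A_33_P3226605 gave -0.00 (SE 0.12), whereas A_33_P3226610 read 9.43 and 9.12 with siRNA-A and siRNA-B, and 9.51 and 9.68 with the controls. Its log2 fold change was -0.32 (SE 0.14) with an unadjusted p of 0.0438 and an adjusted p of 0.609 in limma. The siRNA-B array was the lower. Of 19 partner probes only this probe had an unadjusted p under 0.05 in limma, against 8.06% of all probes. Without siRNA-B the log2 fold change was -0.17 and without siRNA-A -0.47. The unadjusted p in limma was 0.0364 to 0.0443 without weights, without probes near background or with the variance trend. These settings leave the fold change as reported. With every other signal or normalization the p was 0.0864 to 0.203. The other MEN1 probe, A_33_P3414058, read 9.01 and 9.00 against 8.68 and 8.86, with a log2 fold change of 0.24 (SE 0.12) and an unadjusted p of 0.0733 (adjusted p = 0.679 in limma). The unadjusted p was under 0.05 in 3 of 12 alternatives, and the log2 fold change was 0.144 without control siRNA-1. These latter probes were chosen after their values were seen.

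**Figure D3:**
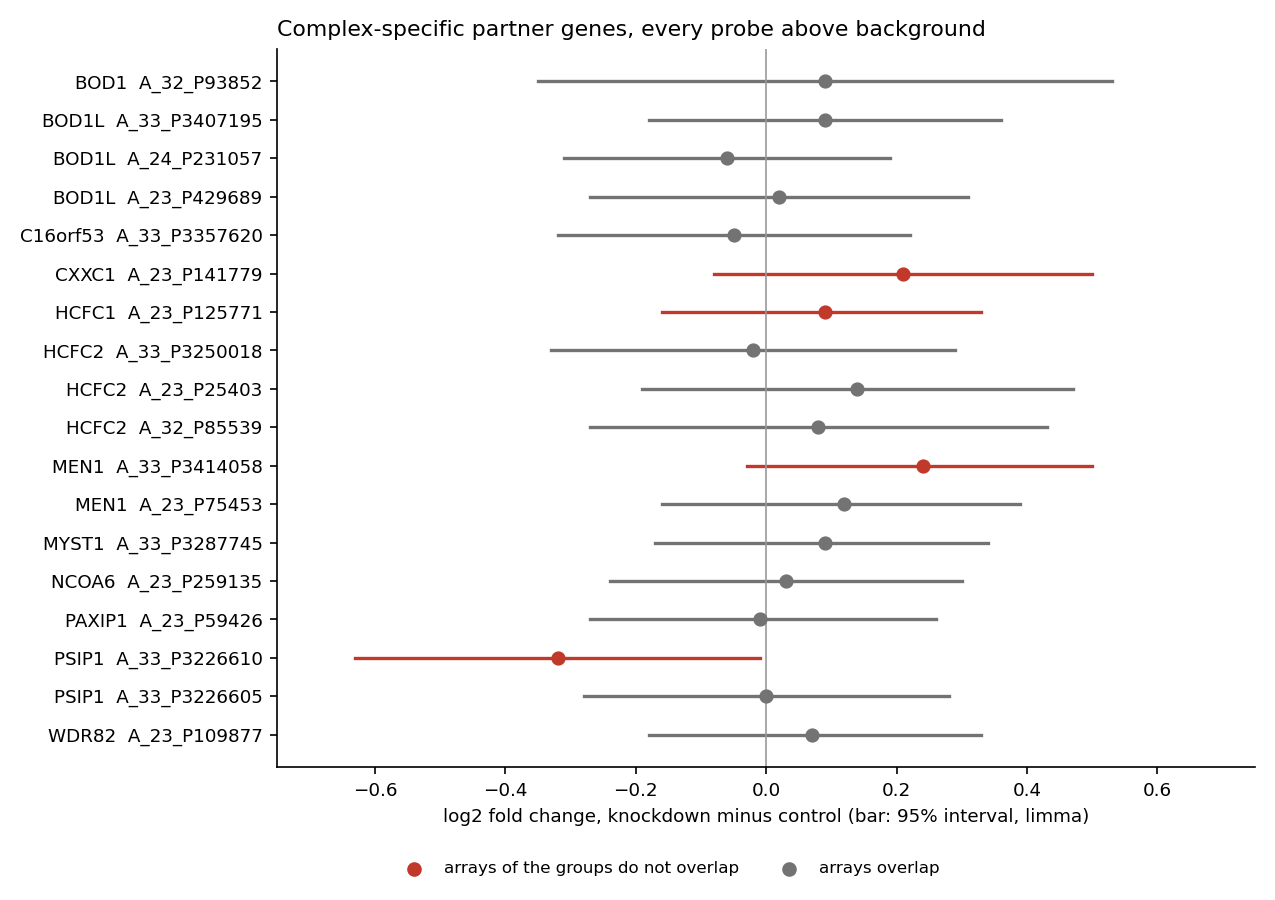
Log2 fold change (x axis, knockdown minus control, log2 units) of the 18 probes of partner genes that were well above background on all arrays, with bars for the 95% interval from limma. Red marks probes on which the arrays of the groups did not overlap. The interval of PSIP1 A_33_P3226610 is the only one that does not include 0.

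Methyltransferases with a SET domain outside this family were compared in the same way. Of 27 listed genes 25 had a probe that was analysed. None was called and none had an unadjusted p under 0.05 in limma, against 1.35% and 8.20% of all gene names. The groups did not overlap for 5 genes that were lower and 3 that were higher, against 21.1% and 15.2% of all gene names. The median log2 fold change was -0.0155, and -0.111 without control siRNA-1. Over all probes it was -0.0181, and -0.0505 without control siRNA-1. Of the log2 fold changes of these genes, 12 were above 0 and 13 below. The highest was 0.18 for SETDB2, an enzyme of the lysine 9 class, which was 0.0592 without control siRNA-1, and the lowest -0.26 for SUV420H1, a lysine 20 methyltransferase, which read 7.86 with siRNA-A and 8.39 with siRNA-B, and 8.42 and 8.35 with the controls. Here too the siRNA-A array stood apart from the other arrays, and without it the log2 fold change was 0.00572.

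The array's MLL probes carry the name of the wild-type gene, whose 5′ part is also in the fusion. The brightest, A_33_P3390570, starts at position 3531 of the transcript. It read 10.55 and 10.64 with siRNA-A and siRNA-B, and 10.95 and 11.08 with the controls. Whether this probe also reads the fusion transcript was not tested, so that its value cannot be assigned to wild-type MLL alone. The log2 fold change was -0.41 (SE 0.11, adjusted p = 0.403 in limma), which did not pass the threshold as reported here. Its unadjusted p was 0.0059, and over 12 alternatives it ranged from 0.0013 (normexp) to 0.059 (without control siRNA-2) and was under 0.005 in 4. The 3 other MLL probes lie further toward the 3′ end, and the groups overlapped on each. A_24_P136402, which was well above background on 3 of 4 arrays, gave a log2 fold change of -0.08 (SE 0.13), A_33_P3390576 0.05 (SE 0.11) and A_33_P3307307 -0.03 (SE 0.11). No member probe passed an unadjusted p of 0.005 under any of the 12 alternatives.

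Over 12 alternative settings, 7 of the 16 probes kept their sign and 9 did not. The weighting, filter and variance settings leave the fold change of every member probe as reported. Leaving out 1 array cannot turn the sign of a probe whose groups do not overlap. For such probes only another signal or normalization could turn it. MLL3 A_33_P3301306 ranged from -0.52 to -0.21 and A_33_P3321275 from -0.27 to -0.09. DPY30 ranged from -0.49 to -0.05, MLL4 A_33_P3221761 from 0.07 to 0.24 and MLL5 A_33_P3277407 from 0.04 to 0.23. For MLL3 A_33_P3301306 the unadjusted p in limma was 0.0178 to 0.0241 without weights, without probes near background or with the variance trend. With every other signal or normalization it was 0.0611 to 0.123. The lowest log2 fold change of this probe came without siRNA-A and the highest without siRNA-B.

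**Figure D4:**
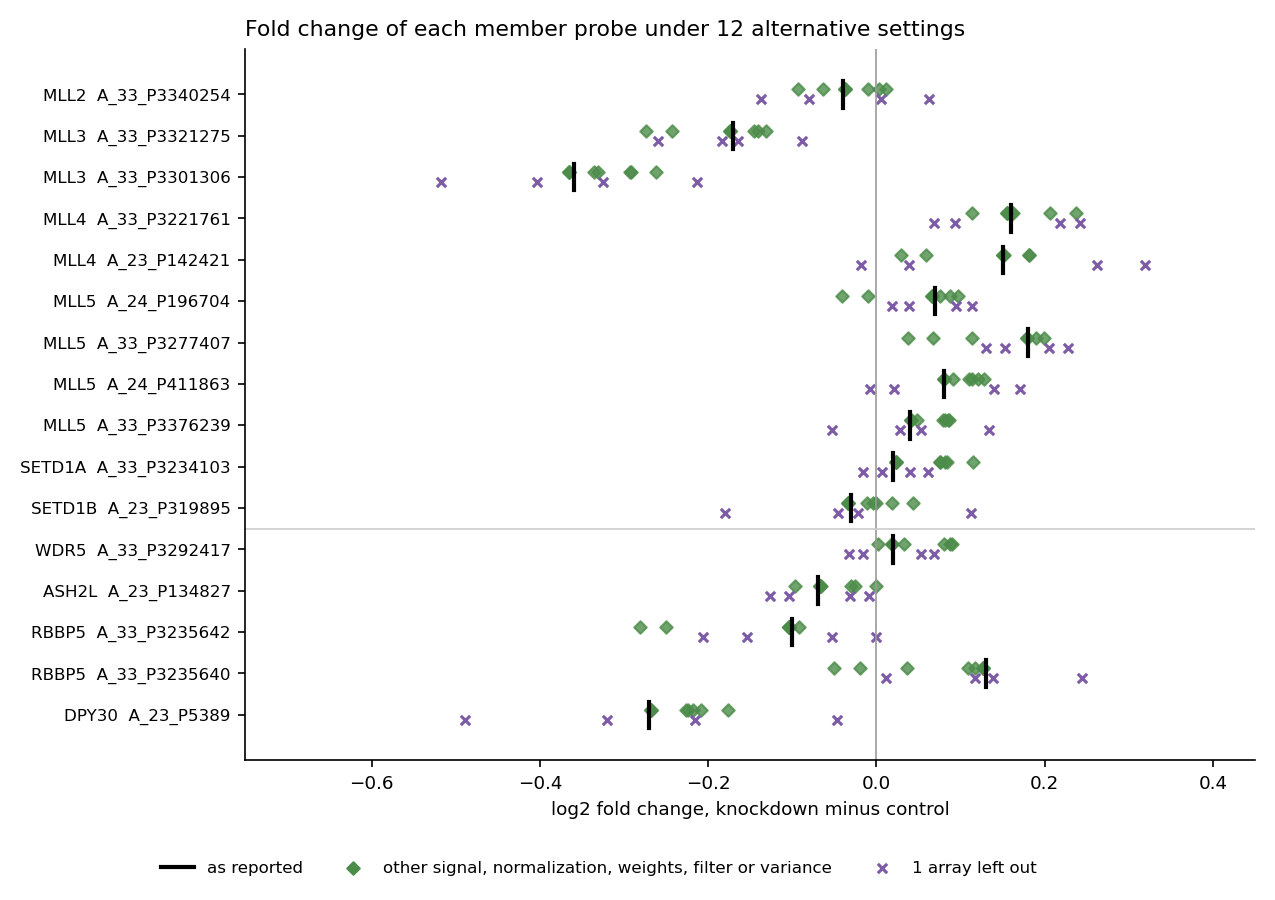
Log2 fold change of each member probe (x axis, knockdown minus control, log2 units) as reported (black bar), with another signal, normalization, weighting, filter or variance model (green diamonds) and with 1 array left out (purple crosses). Methyltransferases are above the grey line and core subunits below it. Both MLL3 probes and DPY30 stay below 0 in every setting shown, and the points of MLL2, SETD1A, SETD1B and WDR5 lie on both sides of 0. The weighting, filter and variance settings leave each value as reported. On both MLL3 probes, leaving out 1 array cannot turn the sign, since the groups do not overlap.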

How the data were processed

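Gene expression in 4 pooled RNA samples of THP1 cells was read on single-colour Agilent 4x44K arrays, with 5 experiments to a pool. The authors extracted the spots with Agilent Feature Extraction 10.5.1.1, per the file headers, and deposited for each spot an intensity, without background correction or normalization between arrays, and a quality weight (a score of 0, 0.5 or 1). How the weights were set is not given in the sources used here. In 100% of 44495 spots this intensity was identical to the scanner's median pixel value. The scanner tables also hold the deposited background-subtracted signal, local background and flags, and 15 of their 61 columns were used. Gene names were those of the deposited table and equalled those of the scanner tables in 99.92% of spots. RefSeq accessions were matched to symbols of GRCh38 and hg19 coordinates were copied, without exon or UTR annotation.

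After leaving out 1377 control spots and spots with a weight of 0, 33323 spots of 26219 probes remained. Identical spots were averaged, and log2 intensities of all probes were fitted in limma 3.58.1 (R 4.3.3) with the deposited weights and no covariates. A call needed an unadjusted two-sided p under 0.005, and adjusted p (Benjamini-Hochberg) are over all probes. Values of a gene are of its brightest probe unless a probe is named. Named genes were all members by every probe, every partner, MLL, and the highest and lowest of the other SET domain methyltransferases. Members and lists were chosen with earlier results of these data known. Myeloid, T cell, B cell, erythroid and epithelial markers were examined for signal over background only.

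Alternatives were the background-subtracted signal with and without scaling to its 75th percentile, quantile and cyclic loess normalization, normexp (offset 50) with quantile normalization, no weights, a variance model with an intensity trend, leaving out probes near background, omission of each array, and, for medians, the mean of a gene's probes. The pipeline was tested on simulated data. Precision is limited by the number of arrays.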

Additional observations from a re-analysis of the deposited data

How the results depend on the processing

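No alternative called a member probe, and none of the partner genes or other SET domain genes was called in any of the settings in which they were counted. At an unadjusted p under 0.05 the number of member probes was 1. This probe, MLL3 A_33_P3301306, had a p of 0.0611 to 0.123 with every other normalization or signal tried, and of 0.0943 to 0.153 without the siRNA-B array or either control. Over all probes 345 were called as reported, 226 with the scaled background-subtracted signal, and 78 to 242 with 1 array left out (88 without control siRNA-1 and 78 without control siRNA-2), where the remaining array of the group was taken to vary as the other group did. By adjusted p in limma 31 of all probes passed 0.05 as reported, and 0 passed after quantile normalization or without any single array. The median log2 fold change over the member genes ranged from -0.131 to 0.0393 with 1 array left out. Over the partners it ranged from -0.0055 (without control siRNA-1) to 0.138. Over the other SET domain genes it ranged from -0.111 (without control siRNA-1) to 0.0445, and over all probes from -0.0505 (without control siRNA-1) to 0.011. Several member values changed sign under another setting. MLL2 was 0.0112 after quantile and 0.00329 after cyclic loess normalization, and SETD1B was 0.0187 with the scaled background-subtracted signal and 0.043 with normexp. With the background-subtracted signal, scaled and unscaled, MLL5 A_24_P196704 was -0.0101 and -0.0406, and RBBP5 A_33_P3235640 was -0.0199 and -0.0504. With 1 array left out, the log2 fold change ranged from -0.137 to 0.0624 for MLL2, from -0.0182 to 0.319 for MLL4 A_23_P142421, from -0.00796 to 0.17 for MLL5 A_24_P411863, from -0.053 to 0.134 for MLL5 A_33_P3376239, from -0.0155 to 0.0615 for SETD1A, from -0.18 to 0.112 for SETD1B and from -0.0326 to 0.0689 for WDR5. Among the partners it ranged from -0.233 to 0.407 for BOD1, from -0.0146 to 0.191 for BOD1L, from -0.149 to 0.0511 for C16orf53, from -0.0144 to 0.295 for HCFC2, from -0.0757 to 0.134 for NCOA6, from -0.0918 to 0.0759 for PAXIP1 and from -0.129 to 0.121 for PSIP1 A_33_P3226605, and for SUV420H1 it ranged from -0.526 to 0.00572. Values that kept their sign with 1 array left out moved too, from 0.0983 to 0.322 for CXXC1, from 0.0313 to 0.204 for MEN1 A_23_P75453, from -0.472 to -0.17 for PSIP1 A_33_P3226610, from 0.0592 to 0.296 for SETDB2, from -0.126 to -0.00925 for ASH2L, from 0.0107 to 0.244 for RBBP5 A_33_P3235640, from 0.00805 to 0.138 for WDR82, from 0.0364 to 0.138 for MYST1, from 0.0187 to 0.114 for MLL5 A_24_P196704, from 0.0687 to 0.242 for MLL4 A_33_P3221761, from 0.144 to 0.331 for MEN1 A_33_P3414058 and from -0.206 to -0.000899 for RBBP5 A_33_P3235642, which was -0.281 with the unscaled background-subtracted signal. The unscaled signal gave -0.0127 for BOD1L and 0.0587 for PSIP1 A_33_P3226605. With the scaled signal, quantile, cyclic loess and normexp, PAXIP1 was 0.023, 0.0382, 0.0302 and 0.0414, and PSIP1 A_33_P3226605 was 0.0892, 0.0454, 0.0465 and 0.0676. The cause of these changes was not tested. Signal over background limits the probes of RBBP5, where local background reached 35.1% of the intensity. No paired analysis was possible because the knockdown and control arrays share no replicate number.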
